A study of Rattus norvegicus with 6 samples.

Results

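Laminins, nidogens and perlecan are the glycoproteins that, with collagen IV, build basement membranes and the thin matrix shell around single cells. The family was taken as 9 genes by symbol, kept whatever their level: the laminin alpha chain genes Lama2, Lama4 and Lama5, the beta chain genes Lamb1 and Lamb2, the gamma chain gene Lamc1, the nidogen genes Nid1 and Nid2, and the perlecan gene Hspg2. All 9 were found among the 22573 gene rows used. The RNA came from nucleus pulposus cells, which fill the soft core of the intervertebral disc, of Sprague Dawley rats. It was sequenced in 3 control libraries and in 3 from cells put under cyclic tensile strain, stretched by 18% at 0.2 Hz for 24 h on a Flexcell device. The series asks how this stretching changes genes of the circadian clock. Here the same libraries are read for the basement membrane genes. Control samples carry the same treatment text, and only their class label marks them as unstretched. No label gave a genetic modification, the animals' age, the passage of the cells, a harvest time, or the animals or cultures behind the replicates. The spread behind each p-value is thus that of these samples alone and may be technical.

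A laminin is a trimer of 1 alpha, 1 beta and 1 gamma chain, and many laminins are cross-shaped. Many, though not those of every alpha chain, join into a sheet at the cell surface through the ends of their short arms. The end of the alpha chain binds integrins and dystroglycan on the cell. Nidogens bind the gamma chain encoded by Lamc1 and also bind collagen IV and perlecan, and so link the laminin and collagen networks. Perlecan is a large proteoglycan whose heparan sulfate chains hold growth factors. In cartilage and the disc it lies in the pericellular matrix, the layer just around each cell.

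Values are FPKM, the authors' fragment counts scaled to transcript length and library size. Since the unit is per length, levels of different genes can be set side by side. Summed FPKM was 309497 to 348238 per library, and the number of reads behind each value is unknown, so no counting interval was computed. The groups parted on a principal component with 78.6% of the variance. On the next component strain replicate 3 was at 17.5, away from strain replicates 1 and 2 at -9.70 and -10.8. Of 18 nucleus pulposus and notochordal markers in the files, Shh and Noto were at 0 in all 6 libraries, and the cytokeratins Krt18 and Krt19 and the notochord factor T were at or under 0.139 FPKM. The cartilage collagen gene Col2a1 reached at most 1.41 FPKM. The cytokeratin gene Krt8 was at 2.85 to 5.40 FPKM in controls and 6.86 to 11.3 FPKM under strain (adjusted p = 0.017 by limma). Acan lay between 24.2 and 43.3 FPKM with overlapping groups. The cells therefore carried part of the marker set of the labelled tissue, and that part moved with strain. By the limma test described below, 16.4% of all tested genes were higher and 19.0% were lower. Of the 11 tested markers of this list, 8 were higher, 1 (Cdh2) was lower and 2 were not called. Their median log2 difference was 0.85. Their summed level was 5009 to 5391 FPKM in controls and 11800 to 14070 FPKM under strain, mostly Mgp, with means of 5102 ± 195 and 12400 ± 1200 FPKM (SD, n = 3). Pax1 rose 2.98-fold, Lgals3 3.19-fold and Foxf1 1.59-fold. Most tested markers of this list rose in the libraries in which some genes of the family rose and others fell. A part of the list in those changes was not tested. The libraries are bulk samples, in which fewer cells of a type and less RNA per cell cannot be told apart.

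Across the 9 genes, strain was accompanied by a fall of Nid2 to about the level of Lamc1, a rise of Hspg2 and of Lama5, and a smaller fall of Lamb1. Strain was compared with control by limma on log2(FPKM + 1) over the 10180 genes whose mean over the libraries reached 1 FPKM, with Benjamini-Hochberg adjustment over all of them and a threshold of 0.05. Of the 9 genes 8 passed the filter, and Lama2 did not. Among these 8, 2 were higher, 2 were lower and 4 were not called, beside 35.4% of all tested genes called (16.4% higher and 19.0% lower). When each library was scaled to an equal upper quartile, the split over all genes turned from 1672 higher and 1936 lower to 2272 higher and 1556 lower. The groups did not overlap in 4 of the 8 genes, beside 51.9% of all tested genes, 24.0% with strain above control and 28.0% with strain below. The shares of the family are read against these, and they do not set it apart from other genes. The median log2 difference of the 8 genes was -0.03, and that of all tested genes was -0.01.

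**Figure D1:**
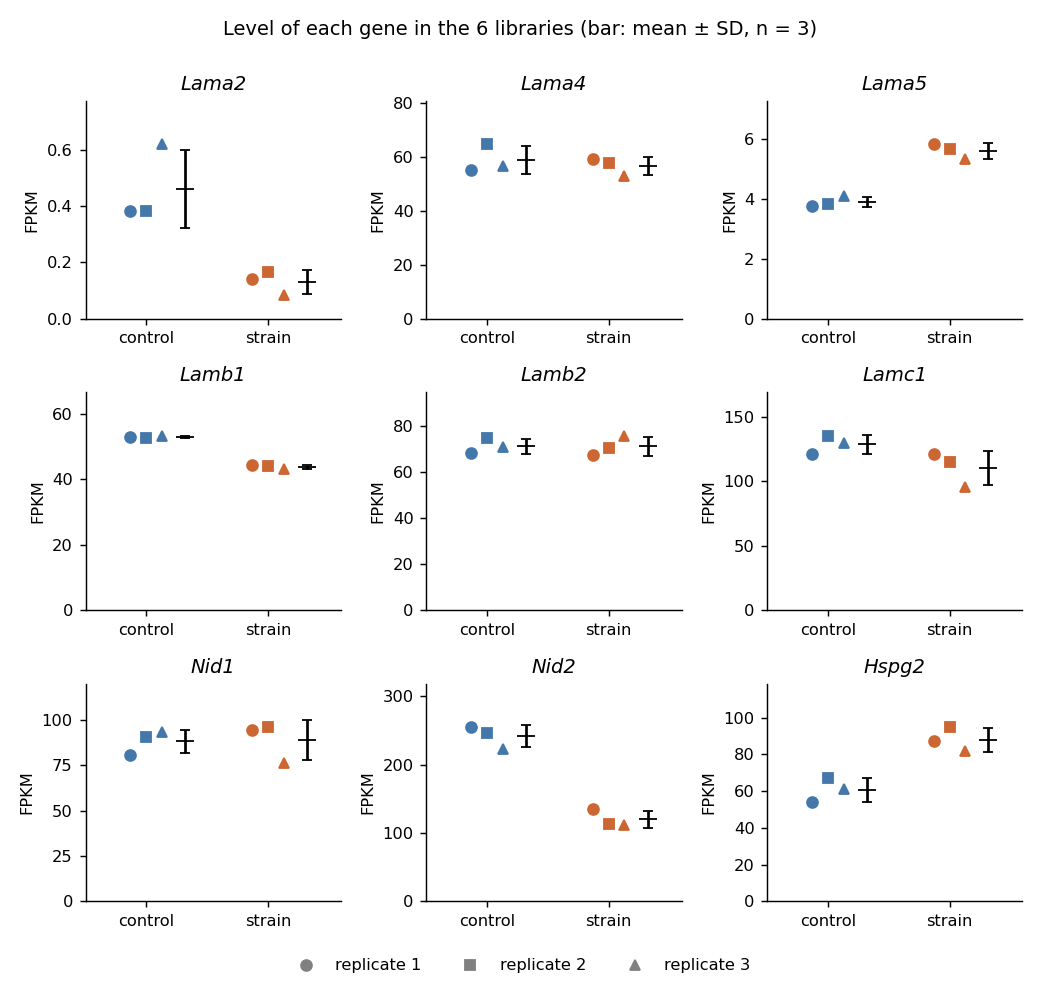
FPKM of each of the 9 genes (vertical axes, each starting at 0) in the 3 control libraries (blue) and the 3 strain libraries (orange), with the replicate number as the marker and the mean ± SD beside the points. Nid2 lay at 223 to 255 FPKM in controls and 111 to 135 under strain, Hspg2 and Lama5 were higher in each strain library than in any control, and Lama2 stayed under 1 FPKM throughout.

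In control libraries the order of levels, from the highest, was Nid2, Lamc1, Nid1, Lamb2, Hspg2, Lama4, Lamb1, Lama5 and Lama2. The control ranges of Hspg2 and Lama4 overlapped, and the ranges of all other neighbours in that order did not. Nid2 averaged 242 FPKM there, which placed it 207th among all rows. Under strain the order changed at 1 place, where Hspg2 passed Lamb2, but the upper levels drew together. The strain ranges of Nid2 and Lamc1, of Lamc1 and Nid1, and of Nid1 and Hspg2 overlapped. Nid2 fell to 404th among all rows, and Hspg2 moved from 886th to 563rd.

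Among the laminin alpha chains, Lama4 was by far the most abundant. Its gene product is the alpha chain of vessel walls and other mesenchymal tissues. Controls 1 to 3 held 54.9, 64.6 and 56.7 FPKM of Lama4 and strain libraries 1 to 3 held 59.3, 57.6 and 52.8 FPKM, the order used for every gene. The groups overlapped, and the difference was -0.05 ± 0.10 (log2, SE) with a 95% interval of -0.27 to 0.16 (adjusted p = 0.70 by limma).

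Lama5, which encodes the alpha chain found in most mature basement membranes, was present at a much lower level. The control libraries held 3.78, 3.83 and 4.09 FPKM of Lama5 and the strain libraries 5.83, 5.69 and 5.33 FPKM. Every strain library was above every control. The means were 3.90 ± 0.17 and 5.61 ± 0.26 FPKM (SD, n = 3), a 1.44-fold rise (log2 difference 0.43 ± 0.09 SE, adjusted p = 0.0068 by limma), and the call held in all 13 alternatives that gave it a value.

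Lama2, whose alpha chain surrounds muscle fibres and Schwann cells, was detected only at low levels. It was listed at 0.382, 0.381 and 0.619 FPKM in controls and at 0.141, 0.167 and 0.083 FPKM under strain. The groups did not overlap, although every value was under the filter of 1 FPKM and Lama2 was left out of the test for that reason. With no filter, which brought in genes down to any value above 0, limma gave a log2 difference of -0.37 (adjusted p = 0.014).

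The beta chains differed from each other. Lamb1 encodes the beta chain of embryonic and many adult laminins. It was at 52.9, 52.7 and 53.4 FPKM in controls and at 44.4, 44.1 and 43.1 FPKM under strain. Both groups were tight and did not overlap. Lamb1 fell 1.21-fold (log2 difference -0.27 ± 0.08 SE, adjusted p = 0.024 by limma). This call was lost in 8 of 14 alternatives: with quantile normalization, with upper quartile scaling (-0.19 in both), with the replicate number as a block, and without any 1 of control replicates 1, 2 and 3 or strain replicates 1 and 2 (-0.28 to -0.26). Adjusted p ranged from 0.017 to 0.084 over the 14.

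Lamb2 encodes the beta chain of the kidney filter and the neuromuscular junction. It was at 68.1, 74.5 and 70.8 FPKM in controls and at 67.4, 70.3 and 75.7 FPKM under strain. The groups overlapped throughout, with means of 71.1 ± 3.25 and 71.1 ± 4.19 FPKM (SD, n = 3), and the 95% interval of the log2 difference ran from -0.20 to 0.20 (adjusted p = 0.99 by limma). The ratio of Lamb2 to Lamb1 was 1.34 ± 0.07 in controls and 1.62 ± 0.12 under strain, without overlap.

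Lamc1, the gamma chain gene shared by most laminins and the chain that nidogen binds, was at 121, 135 and 130 FPKM in controls. Under strain it was at 121, 115 and 95.6 FPKM. Strain replicate 1 lay within the control range and strain replicate 3 was the lowest of all 6 libraries. Lamc1 was not called (log2 difference -0.22 ± 0.11 SE, 95% interval -0.47 to 0.03, adjusted p = 0.15 by limma).

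**Figure D2:**
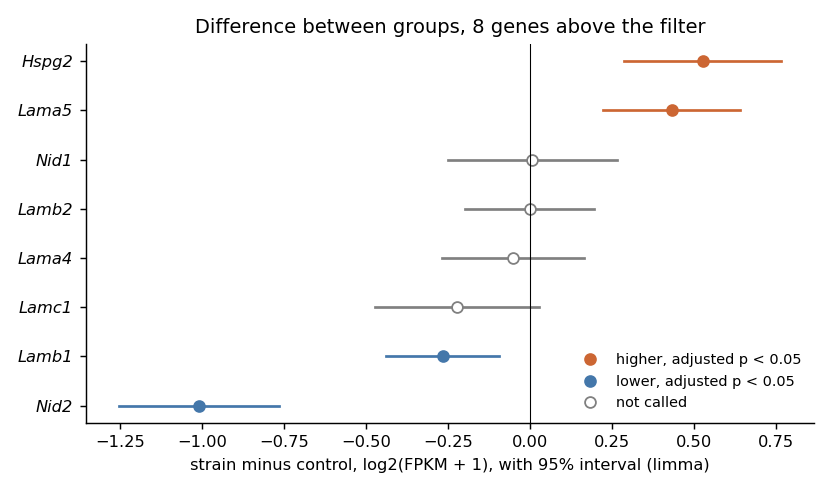
Difference between strain and control on the log2(FPKM + 1) scale (horizontal axis) for the 8 genes above the filter, with 95% intervals from limma. Filled points passed an adjusted p of 0.05: Hspg2 (0.53) and Lama5 (0.43) were higher, Lamb1 (-0.27) and Nid2 (-1.01) were lower, and the intervals of the other 4 genes include 0.

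Because a laminin takes 1 chain of each kind, the FPKM of all alpha, beta and gamma chain genes in the files were summed per library. RNA levels do not give the amount of protein. The alpha sum was 64.6 ± 5.39 FPKM in controls and 63.3 ± 3.79 FPKM under strain, the beta sum 125 ± 2.93 and 115 ± 3.61 FPKM, and the gamma sum 134 ± 7.66 and 115 ± 13.2 FPKM (SD, n = 3). Alpha chain RNA was thus the scarcest of the 3 kinds in every library. The ratio of alpha to gamma was 0.480 ± 0.019 in controls and 0.556 ± 0.033 under strain, without overlap (exact two-sided permutation p = 0.10, 0.17 after Benjamini-Hochberg adjustment over 5 comparisons). With 3 libraries against 3, an exact permutation p cannot go below 0.10. Beta to gamma was 0.929 ± 0.032 and 1.02 ± 0.16 (exact permutation p = 0.60), a log2 difference of 0.12 that was 0.001 without strain replicate 3. That library was at 1.20 and the other strain libraries at 0.895 and 0.965, near the control range of 0.902 to 0.964.

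Further laminin chains were scarce. Lama3 and Lamb3 encode an alpha and a beta chain of the laminin under epithelia of the skin. Lama3, with means of 1.46 ± 0.33 and 1.02 ± 0.14 FPKM, missed the threshold (adjusted p = 0.11 by limma). Lamb3 stayed between 0.080 and 0.668 FPKM with overlapping groups. Lama1 and Lamc3 were at or under 0.030 FPKM in every library. Epithelial markers were close to absent, with Cdh1, Krt5, Krt14 and Grhl2 at 0 in all libraries and 9 of 10 markers under 1 FPKM throughout. The summed level of that list was 1.29 to 1.99 FPKM in controls and 0.187 to 0.509 FPKM under strain, and most of it was Elf3 in controls. Its part in the levels of Lama3 and Lamb3 was not tested.

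The nidogens parted under strain. Nid2 was the most abundant gene of the family in controls, at 255, 247 and 223 FPKM, and stood at 135, 113 and 111 FPKM in the strain libraries. The lowest control was well above the highest strain library. Nid2 fell 2.02-fold, from 242 ± 16.4 to 120 ± 12.9 FPKM (SD, n = 3; log2 difference -1.01 ± 0.11 SE, adjusted p = 0.00022 by limma), and was called in all 14 alternatives (-1.10 to -0.93).

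Nid1, the nidogen first isolated from basement membranes, did not follow. It was at 80.9, 90.5 and 93.2 FPKM in controls and at 94.6, 96.1 and 76.1 FPKM under strain. Strain replicates 1 and 2 lay above the controls and strain replicate 3 below them. The log2 difference was 0.01 ± 0.11 SE with a 95% interval of -0.25 to 0.26 (adjusted p = 0.97 by limma).

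The ratio of Nid2 to Nid1 within a library was 3.15, 2.73 and 2.40 in controls and 1.42, 1.18 and 1.46 under strain. A ratio within a library does not depend on how libraries are scaled. The groups did not overlap (log2 difference -1.02, exact two-sided permutation p = 0.10, the smallest this design allows, and 0.10 after adjustment over 7 ratios). Nid1 relative to Lamc1, its binding partner, was 0.685 ± 0.028 in controls and 0.804 ± 0.027 under strain. Its log2 difference was 0.23, also without overlap and with exact permutation p = 0.10.

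**Figure D3:**
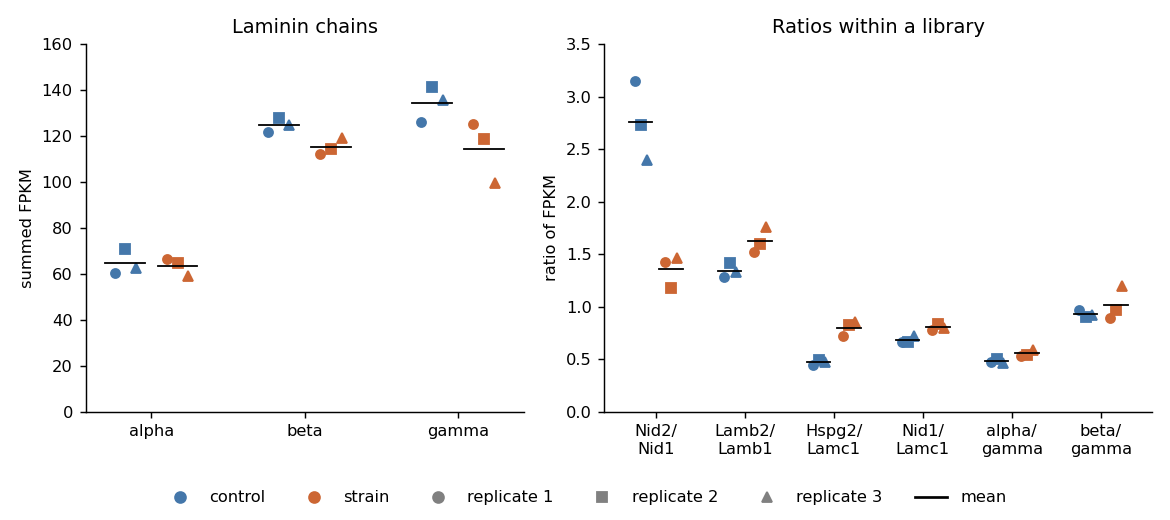
Left, summed FPKM of the laminin alpha, beta and gamma chain genes in each library. Right, ratios of FPKM within each library, with controls in blue, strain in orange, the replicate number as the marker and the mean as a line. Nid2/Nid1 lay at 2.40 to 3.15 in controls and 1.18 to 1.46 under strain, and Hspg2/Lamc1 at 0.448 to 0.497 and 0.723 to 0.854.

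Hspg2, the perlecan gene, rose. It was at 54.2, 67.3 and 61.2 FPKM in controls and at 87.5, 94.9 and 81.6 FPKM under strain. Each strain library was above the highest control. The rise was 1.45-fold, from 60.9 ± 6.55 to 88.0 ± 6.64 FPKM (SD, n = 3; log2 difference 0.53 ± 0.11 SE, adjusted p = 0.0051 by limma), and Hspg2 was called in all 14 alternatives (0.45 to 0.61). Relative to Lamc1 it stood at 0.448, 0.497 and 0.471 in controls and at 0.723, 0.823 and 0.854 under strain (log2 difference 0.76, exact permutation p = 0.10). Agrn, which encodes agrin, another heparan sulfate proteoglycan of basement membranes, was chosen for comparison after its values were seen. Its control and strain means were 2.58 ± 0.16 and 3.36 ± 0.21 FPKM (adjusted p = 0.046 by limma) and lost its call in 8 of 13 alternatives.

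All 7 ratios of family members fixed for testing differed without overlap, each with exact permutation p = 0.10. They are not independent, since Lama2, Lama4, Lama5, Nid1 and Lamc1 each enter more than 1 of them. Full separation of control and strain was also common among single genes, at 51.9% of those tested. The matching share for ratios of other genes was not computed, so whether the 7 ratios set the family apart was not tested. The 3 ratios not yet given concern the alpha chains. Lama5 relative to Lama4 was 0.067 ± 0.007 in controls and 0.099 ± 0.001 under strain. Lama4 relative to Lama2 was 135 ± 39.6 and 467 ± 151, and Lama5 relative to Lama2 was 8.86 ± 1.95 and 46.5 ± 15.7, both resting on Lama2 values under 1 FPKM. With a pseudocount of 1 their log2 differences shrank from 1.79 to 0.31 and from 2.37 to 0.80. With 3 libraries a group none of these ratios can pass a threshold of 0.05.

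Promoter sequence is shown for 4 genes, the pair that rose (Hspg2 and Lama5) and a pair that was not called (Lamc1 and Lama4), to set the start regions of differing responders side by side. RefSeq's table of promoters on build GRCr8 held 7 of the 9 genes by symbol; Lamb2 and Nid2 were not among them. The printed stretch runs 5′ to 3′ on the gene's strand and ends just before the outermost annotated start of the gene. Capitals mark GC boxes, the letters GGGCGG on either strand, the core that SP-family factors bind.
Hspg2 (GRCr8 chr5:154960596-154960817, + strand): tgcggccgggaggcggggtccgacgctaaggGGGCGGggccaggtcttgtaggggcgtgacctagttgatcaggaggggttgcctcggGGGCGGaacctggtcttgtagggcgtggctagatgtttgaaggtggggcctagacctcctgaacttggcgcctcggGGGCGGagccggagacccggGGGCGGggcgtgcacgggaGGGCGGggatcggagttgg
Lama5 (GRCr8 chr3:187695975-187696224, - strand): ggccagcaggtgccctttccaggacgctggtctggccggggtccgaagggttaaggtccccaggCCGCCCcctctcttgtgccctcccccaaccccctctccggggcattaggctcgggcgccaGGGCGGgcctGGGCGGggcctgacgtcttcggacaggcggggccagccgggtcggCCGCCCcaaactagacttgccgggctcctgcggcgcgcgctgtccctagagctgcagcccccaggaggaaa
Lamc1 (GRCr8 chr13:68051987-68052236, - strand): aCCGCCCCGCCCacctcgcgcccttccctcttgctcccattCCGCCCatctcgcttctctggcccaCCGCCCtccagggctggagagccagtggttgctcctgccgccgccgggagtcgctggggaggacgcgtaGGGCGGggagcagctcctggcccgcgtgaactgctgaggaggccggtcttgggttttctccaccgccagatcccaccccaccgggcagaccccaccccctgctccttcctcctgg
Lama4 (GRCr8 chr20:43946648-43946897, + strand): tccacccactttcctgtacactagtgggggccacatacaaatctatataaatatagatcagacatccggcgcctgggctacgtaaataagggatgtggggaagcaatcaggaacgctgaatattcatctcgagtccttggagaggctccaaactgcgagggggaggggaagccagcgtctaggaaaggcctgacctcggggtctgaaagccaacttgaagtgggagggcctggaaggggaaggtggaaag

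Motifs and GC content were counted in the table's full window of 250 bases before its own start, whereas a printed stretch stops at the outermost annotated start, so that of Hspg2 is 222 bases long and holds all 5 of its GC boxes. Counting overlapping matches separately, Hspg2 and Lamc1 each held 5 GC boxes, Lama5 held 4, Lamb1 and Nid1 held 2 each, Lama2 held 1 and Lama4 held 0. At least 1 GC box was found in 30.5% of all 33469 promoters of the table in the same window, and at least 4 in 3.67%. GC content was 69.2% for Hspg2, 72.8% for Lama5 and 71.2% for Lamc1, against 53.2% for Lama4 and a median of 51.2% over all promoters. Lama4 alone among the 7 held the letters TATAAA, which 12.9% of promoters hold on either strand. None of the 7 held the cAMP response element TGACGTCA (1.59% of promoters), the E-box CACGTG bound by clock factors (5.59%) or the AP-1 site TGANTCA (6.34%), which says only that these letters are not in this window. Hspg2, which rose, and Lamc1, which was not called, held 5 GC boxes each. A part of GC boxes in the response was not tested.

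Around the family, 84 of 89 listed genes of basement membranes, their receptors and their sugar chains were in the files. Of the 64 that passed the filter, 20 were higher, 13 were lower and 31 were not called. Over all tested genes 35.4% were called, 16.4% higher and 19.0% lower. The counts of each list below are to be read beside these shares. Named genes are taken from the 4 tested genes with the smallest p in each list.

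Collagen IV forms the second network of a basement membrane, to which nidogens attach. Of 6 tested collagen IV, XV and XVIII genes and cross-linkers, 2 fell, 2 rose and 2 were not called, with a median log2 difference of -0.05. Col4a1 and Col4a2, which encode the chains of the common collagen IV, fell 2.08-fold and 1.71-fold. Col4a1 dropped from 289 ± 1.24 to 139 ± 7.61 FPKM and Col4a2 from 213 ± 0.04 to 124 ± 5.88 FPKM (adjusted p = 7.6e-05 and 0.00027 by limma). Pxdn, the peroxidase that cross-links collagen IV, rose 1.64-fold to 27.3 ± 1.40 FPKM (adjusted p = 0.00076). Col4a5, a chain of a second collagen IV, rose 1.38-fold to 9.96 ± 0.96 FPKM (adjusted p = 0.019) and lost its call without control replicate 1, control replicate 3 or strain replicate 2. Nid2 thus fell in the libraries in which Col4a1 and Col4a2 fell.

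Other glycoproteins of basement membranes rose in 5 and fell in 2 of 10 tested cases (median log2 difference 0.05). Smoc1, a calcium-binding protein of the SPARC family, fell 2.34-fold to 8.64 ± 0.79 FPKM. Ntn4, a netrin that binds laminin and can break up its sheet, fell 2.16-fold to 31.4 ± 5.31 FPKM. Fbln1, a fibulin that binds nidogen and laminin, rose 2.08-fold to 11.8 ± 1.78 FPKM, and Sparc, a collagen-binding protein, rose 1.47-fold from 2406 ± 155 to 3533 ± 351 FPKM. The adjusted p-values were 0.00010, 0.00042, 0.0010 and 0.0098 (limma), and the 4 genes were called in all 14 alternatives.

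Receptors for basement membranes had 2 rises and 5 falls among 17 tested (median log2 difference -0.08). Itga7, the alpha subunit of a laminin receptor of muscle, was at 200, 149 and 192 FPKM in controls and at 45.0, 35.7 and 40.1 FPKM under strain. It fell 4.48-fold (adjusted p = 2.5e-05 by limma). Itga2, the alpha subunit of a collagen and laminin receptor, dropped from 13.8 ± 3.26 to 0.442 ± 0.157 FPKM (adjusted p = 1.6e-05). Ddr2, a collagen receptor kinase, fell 1.79-fold (adjusted p = 0.0019), and Sgcb, a sarcoglycan of the dystroglycan complex, rose 1.89-fold (adjusted p = 0.00039).

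Some other receptors of the list were looked up after their values were seen. Itga6 fell 1.32-fold, from 18.4 ± 1.56 to 13.9 ± 1.11 FPKM (adjusted p = 0.017 by limma), and lost its call without control replicate 2. Itga3 averaged 80.0 ± 2.97 and 76.9 ± 6.94 FPKM (adjusted p = 0.66). Their shared partner Itgb1 averaged 489 ± 24.4 and 461 ± 11.5 FPKM (adjusted p = 0.53), and the dystroglycan gene Dag1 84.2 ± 4.26 and 76.6 ± 4.68 FPKM (adjusted p = 0.27). The groups overlapped in Itga3, Itgb1 and Dag1. Itga7 thus stood 2.26 ± 0.42 times as high as Itga3 in controls and 0.524 ± 0.052 times as high under strain. Itga1 averaged 49.4 ± 4.21 and 25.4 ± 11.6 FPKM without overlap but was not called (adjusted p = 0.069 by limma). Its strain replicate 3 was lowest, at 12.0 FPKM. Bcam, which was under the filter and not tested, averaged 0.509 ± 0.143 and 0.171 ± 0.064 FPKM, also without overlap.

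Enzymes that build the laminin-binding sugar chain of dystroglycan had 3 rises and 1 fall among 11 tested (median log2 difference 0.07). Pomk, the kinase of the chain's core, rose 1.45-fold to 3.47 ± 0.24 FPKM, and Pomt1, which adds the first mannose, rose 1.33-fold to 9.22 ± 1.20 FPKM (adjusted p = 0.012 and 0.028 by limma). Pomgnt1, which extends O-linked mannose, fell 1.38-fold to 25.5 ± 3.97 FPKM (adjusted p = 0.013). Pomk and Pomgnt1 lost their calls without control replicate 1, and Pomt1 lost its call without any 1 of the 3 control replicates and with the replicate block.

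Enzymes that make or edit heparan sulfate, the sugar chain carried by perlecan, had 8 rises and 2 falls among 18 tested (median log2 difference 0.11). Xylt1, which starts heparan and chondroitin sulfate chains alike, fell 5.31-fold to 1.42 ± 0.46 FPKM (adjusted p = 5.4e-05 by limma). Extl3, which commits a chain to heparan sulfate, fell 2.12-fold to 15.7 ± 1.61 FPKM (adjusted p = 0.00020). Hpse, the heparanase that cuts the chains, rose 2.52-fold to 8.20 ± 0.49 FPKM (adjusted p = 7.6e-05), and the sulfotransferase gene Hs6st1 rose 1.76-fold to 20.8 ± 3.62 FPKM (adjusted p = 0.0018). Each of the 4 was called in every alternative that gave it a value. Some other genes of chain assembly, named after their values were seen, went the other way, and some were not called. Xylt2, the paralog of Xylt1, rose 1.54-fold to 9.08 ± 1.23 FPKM (adjusted p = 0.012 by limma) and lost its call without control replicate 1. The linkage enzyme gene B4galt7 rose 1.47-fold and the chain polymerase gene Ext2 1.45-fold (adjusted p = 0.0080 and 0.0033), both in all 14 alternatives. B3galt6, B3gat3 and Ext1 were not called, with log2 differences of -0.02, 0.09 and -0.15 (adjusted p = 0.93, 0.59 and 0.29 by limma).

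**Figure D4:**
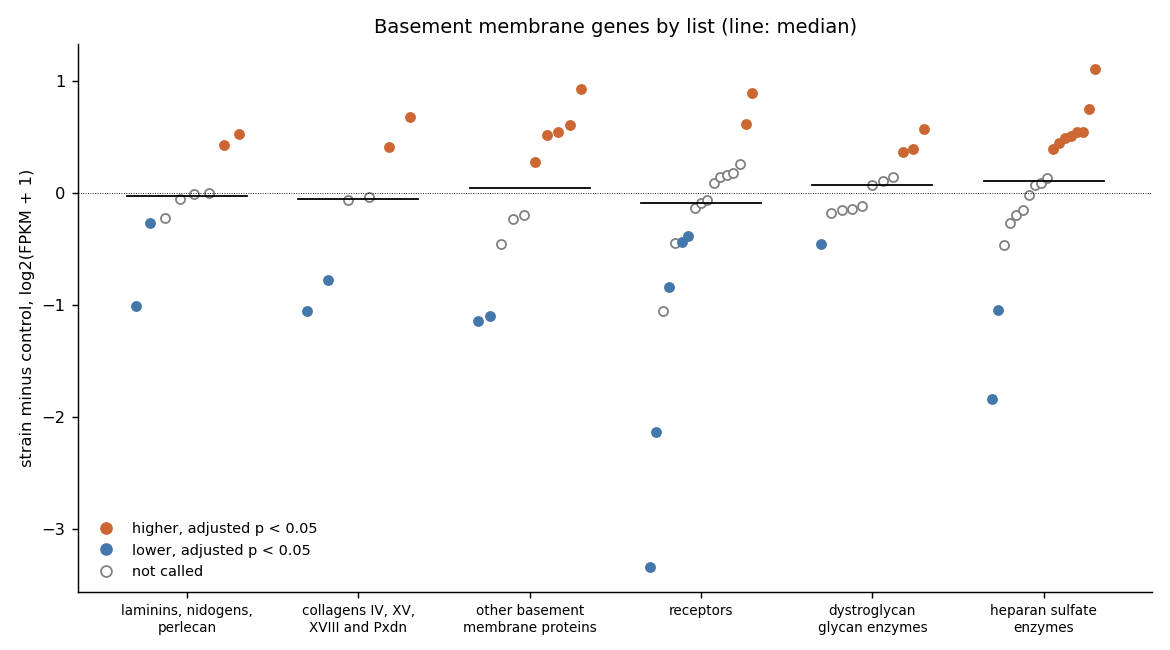
Difference between strain and control on the log2(FPKM + 1) scale (vertical axis) for each tested gene of the family and of 5 lists of related genes (horizontal axis), with the median of each list as a line. Filled points passed an adjusted p of 0.05. Each list has genes on both sides of 0, and the lowest points are Itga2 (-3.33), Itga7 (-2.13) and Xylt1 (-1.84).

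Other cell types that make basement membranes were checked by fixed marker lists. Of 12 endothelial markers 11 stayed under 1 FPKM and 4 (Cdh5, Emcn, Cldn5 and Robo4) were at 0, with a summed level of 3.72 to 4.72 FPKM in controls and 4.07 to 5.38 under strain, mostly Egfl7. Of 10 Schwann cell markers 9 stayed under 1 FPKM and Gfap was at 0. The summed level, 29.3 to 31.4 and 36.8 to 45.4 FPKM, was nearly all S100b, which cartilage cells express too. Of 12 skeletal muscle markers 11 stayed under 1 FPKM and 5 (Myh2, Myh4, Ckm, Tnni2 and Pax7) were at 0, with sums of 1.80 to 4.29 and 1.69 to 4.57 FPKM.

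Markers of pericytes and smooth muscle, cells rich in laminin and perlecan, were present. Of 11 listed, 9 passed the filter. Beside 16.4% of all tested genes higher and 19.0% lower, 5 of these markers rose and 0 fell. Their summed level was 308 to 519 FPKM in controls and 471 to 703 FPKM under strain, mostly Acta2, and these ranges overlap. Among the 5, Cspg4 rose 3.37-fold to 21.2 ± 2.14 FPKM and Pdgfrb 1.45-fold to 37.5 ± 1.68 FPKM, while the defining marker Rgs5 was at 0 in 5 of 6 libraries. The other 4 tested markers were not called. Their log2 differences were -0.13 for Myh11, 0.03 for Cnn1, 0.56 for Acta2 and 0.44 for Des (adjusted p = 0.44, 0.91, 0.10 and 0.097 by limma). The called markers thus rose in the libraries in which Hspg2 and Lama5 rose, and a part of such cells in those rises was not tested. Of 12 macrophage and leukocyte markers 9 stayed under 1 FPKM, Cd163, C1qa and C1qb were at 0, and the sums were 3.39 to 8.60 and 4.46 to 7.67 FPKM. The 3 that were tested moved apart: Lyz2 rose from 0.249 ± 0.142 to 3.30 ± 1.62 FPKM, while Cd68 and Adgre1 fell 2.41-fold and 2.83-fold (adjusted p = 0.00068, 0.0089 and 0.030 by limma). Of 6 adipocyte markers 5 stayed under 1 FPKM, Adipoq and Pck1 were at 0, and the sums were 1.80 to 3.62 FPKM in controls and 0.114 to 0.641 under strain, mostly Fabp4.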

How the data were processed

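RNA of 6 rat nucleus pulposus samples, 3 control and 3 strain, was extracted with TRIzol for Illumina sequencing, per the labels' protocols. The authors deposited 1 FPKM value per gene symbol and library. The unit was read from the values, which were not whole numbers and summed to different totals, and from the tools in the submitters' processing notes: Cufflinks, Cuffdiff 2.2.1, DESeq, HISAT2 2.0.4 and cutadapt 1.9.3. Their order and role, the strandedness, the annotation and any library scaling are not given in the sources used here, so reads of overlapping antisense genes cannot be told apart. The only build named there, hg19, is human, whereas 85.1% of the symbols matched a rat gene in RefSeq's GRCr8 table. Coordinates therefore belong to the promoter table alone.

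Of 22601 rows, 27 with symbols turned into dates (0.191% to 0.232% of summed FPKM) and 1 malformed row were left out. No pair of libraries shared a value at or above 1 FPKM in more than 0% of genes. At low values (0.003 to 0.06 FPKM) only 2.56% to 10.5% of between-library ratios fell within 0.01 log2 units of the commonest, too few to recover reads, so depth is unknown. limma 3.58.1 in R 4.3.3 fitted log2(FPKM + 1) of all genes whose mean reached 1 FPKM, with its trend and robust options, two-sided, adjusted over all 10180 genes. The scale understates changes of low genes. Folds without log are ratios of mean FPKM. The fit was tested on simulated data, in 20 runs with 200 of 10180 genes changed, far fewer than were called in the data. It recovered 50.9% of 1.5-fold and 85.5% of 2-fold changes, and 4.3% of its calls were false. A gene that was not called is thus not shown to be unchanged. Chain sums and ratios used FPKM without a pseudocount and exact permutation over libraries. The family, the lists and the tests were chosen with earlier results of these data known. Named genes are the family and the 4 smallest p of each list. Agrn, Xylt2, B4galt7, Ext2, Ext1, B3galt6, B3gat3, Itga1, Itga3, Itga6, Itgb1, Bcam and Dag1 were chosen after their values were seen. So were the marker genes other than each list's highest and those at 0. Not every gene under the rule is reported here. Each count was recomputed under 14 alternatives.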

Additional observations from a re-analysis of the deposited data

How the results depend on the processing

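Nid2, Hspg2 and Lama5 kept their direction and call in every alternative that gave them a value, and Lamb1 lost its call in 8 of 14 with its direction kept. The number of the 9 genes called was 3 to 4 without each library in turn. Over all genes 2375 were called without control replicate 1, and 2375 to 3576 without each library in turn, against 3608. The listed basement membrane genes called numbered 23 to 35, against 33. Of the 4 genes not called, Lamc1 kept its direction in all 14 alternatives (-0.29 to -0.12) and Lama4, Lamb2 and Nid1 turned in some. With quantile normalization Lama4 was at 0.0135 (log2) and Lamb2 at 0.0785, and with upper quartile scaling at 0.0245 and 0.0759. Leaving out each library in turn gave -0.0984 to 0.0167 for Lama4 (above 0 without control replicate 2), -0.0461 to 0.0362 for Lamb2 and -0.0542 to 0.114 for Nid1. For the summed alpha chains it gave -0.0741 to 0.0395, above 0 when control replicate 2 or strain replicate 3 was absent. The cause was not tested. The other chain sums and all 7 ratios kept their direction but not always their size. Without each library in turn, beta to gamma ranged from 0.001 to 0.21 and the gamma sum from -0.30 to -0.14, both lowest in size without strain replicate 3. A pseudocount of 1 shrank Lama4 to Lama2 to 0.31 and Lama5 to Lama2 to 0.80. With the replicate number as a block 3116 genes were called, 3 of the 9 genes among them, and Lamb1 was not (adjusted p = 0.063). Same-numbered libraries did not deviate together (correlations 0.03, 0.11 and -0.12), and control replicate 1 correlated best with strain replicate 3, so they were taken to share only a number. An exact sign-flip test over the 3 numbered pairs cannot go below p = 0.25. Depth is unknown, which limits Lama2, Lamb3 and other genes under 1 FPKM most.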

Other observations

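These values were looked up after the data were seen and are given as descriptions. Nid2 relative to Col4a1 was 0.877, 0.852 and 0.775 in control libraries and 0.931, 0.868 and 0.779 under strain, with overlapping groups, so the ratio of these genes stayed within 0.775 to 0.931 while each fell about as far as the other (2.02-fold and 2.08-fold). Nid2 relative to Lamc1 was 1.88 ± 0.20 in controls and 1.09 ± 0.09 under strain, without overlap.

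Col4a1 and Col4a2 are known to be transcribed in opposite directions from a shared start region. Col4a1 relative to Col4a2 was 1.36, 1.36 and 1.35 in controls and 1.15, 1.11 and 1.10 under strain, without overlap. Col4a2 was at 213 FPKM in each control library with a coefficient of variation of 0.020%, the lowest of 10180 tested genes, whose median was 8.69%. In the strain libraries it was 4.72%. For Col4a1 the control coefficient of variation was 0.43%, ranked 26 from the lowest, and for Lamb1 it was 0.673%, ranked 68.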
